A study of Homo sapiens with 9 samples.

Results

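The transcripts described here are those of the thioredoxin system, of its inhibitor TXNIP and of ARRDC4, a relative of TXNIP. They are the thioredoxins TXN and TXN2, the thioredoxin reductases TXNRD1 and TXNRD2, the peroxiredoxins PRDX1, PRDX2, PRDX3 and PRDX6, and the alpha-arrestins TXNIP and ARRDC4. They were chosen by gene name, with earlier results of these data known. They are 10 of the 62710 genes in the deposited expression table, and 9 of the 10 were among the 15230 genes tested. RNA-seq was performed on A375R, a line of human melanoma cells with resistance to the BRAF inhibitor PLX4032 that is kept in that inhibitor, so all groups share it. Cells were treated with 10 µM R4VPL3-1 for 2 h, a PROTAC-like molecule that joins an RNF4-binding part to a VHL-binding part, with 10 µM VHL-r for 2 h, the VHL-binding part on its own, or with DMSO as the control. Each treatment had 3 libraries from separate biological repeats, 9 in all. The control libraries are labelled wild type with no dose, the headers of 2 of their 3 columns in the deposited table give 2 h, and the study's design text gives DMSO as the control.

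Thioredoxins are small proteins that reduce disulfide bonds in other proteins and are returned to their reduced form by thioredoxin reductases, selenoproteins that take electrons from NADPH. Peroxiredoxins destroy peroxides and most of them depend on thioredoxin to be used again. TXNIP binds reduced thioredoxin and inhibits it, and TXNIP and its relative ARRDC4 also curb glucose uptake. Both are classic targets of the transcription factor MondoA, encoded by MLXIP, with its partner MLX.

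The sequences upstream of TXNIP and ARRDC4 are shown because these genes had the largest fold changes of the 10. RefSeq windows on GRCh38.p14, 250 bases before to 50 after a start site, were found for 7 of the 10 genes (11 windows). The TXNIP sequence lies at chr1:145996580-145996729 on the minus strand and ends at the base before the start site, with a pair of CACGNG copies, 5 bases apart, in capitals. This arrangement, known as a carbohydrate response element, was present in 20 of all 34796 RefSeq windows (0.0575%), searched on both strands. The ARRDC4 sequence lies at chr15:97960453-97960602 on the plus strand, at the upstream end of its window, with an E-box, CACGTG, in capitals.
TXNIP: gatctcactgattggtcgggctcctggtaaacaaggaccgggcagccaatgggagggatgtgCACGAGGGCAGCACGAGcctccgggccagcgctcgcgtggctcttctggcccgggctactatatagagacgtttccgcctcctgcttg
ARRDC4: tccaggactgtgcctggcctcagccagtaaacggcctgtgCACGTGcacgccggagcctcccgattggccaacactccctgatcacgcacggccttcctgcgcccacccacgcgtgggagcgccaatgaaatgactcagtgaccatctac

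The E-box, which reads the same on both strands, was also present in the PRDX3 window and in 7.20% of all windows. A core of the antioxidant response element, TGACNNNGC, was found at 2 places in the window of the first TXNRD1 start site and at 1 place in that of the second, and in 13.3% of all windows. GAANNTTC, a heat shock element core held by 6.79% of windows, was not matched in any of the 11. These matches describe the letters of the windows.

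Reads recovered from the normalized counts summed to between 26435568 and 32085626 per library. Counting error was small for most of the 9 genes with reads and largest for ARRDC4, at 301 to 762 normalized counts. Of 11 melanoma and neural crest markers, 9 had a median of at least 10 normalized counts, while MLANA was at 0 and TYR at most 2.14. Of 8 markers of other cell types, 3 (KRT14, COL3A1 and KRT5) had a median of at least 10. The lineage markers summed to 50358 to 53204 in DMSO, 41036 to 45554 in VHL-r and 39591 to 42564 in R4VPL3-1. Most of this shift was in SOX10, at 17007 to 17935, 9133 to 11216 and 7900.4 to 8752. MITF was also lower with both compounds, at 1497 to 1994 in DMSO, 983 to 1136 in VHL-r and 893 to 1235 in R4VPL3-1. With R4VPL3-1, AXL (9240 to 10228, against 10321 to 12114.5 in DMSO) and S100A1 (1856 to 2066, against 2142 to 2171) were lower too. Their VHL-r libraries overlapped DMSO. CSPG4 was at 13680 to 14824 in DMSO and 14746 to 16176 in R4VPL3-1, and DCT, S100B and PRAME overlapped between all treatments. The markers of other cell types summed to 956 to 1251, 879 to 1611 and 916 to 1167. Among them KRT14 was lower in every treated library, at 331 to 365 in DMSO, 275 to 303 in VHL-r and 224 to 280 in R4VPL3-1. COL3A1 and KRT5 overlapped between all treatments. The part of these shifts in the results below was not tested. In bulk RNA, fewer cells of a kind and less RNA per cell cannot be told apart.

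TXNIP (chr1:145992435-145996579, minus strand, on GRCh38 as all positions here), the inhibitor of thioredoxin, rose with both compounds. Its normalized counts, which are reads per gene divided by the library's size factor, were 1210.45, 1665 and 1535 in DMSO, 4483, 4419 and 4342 in VHL-r, and 6984, 6537 and 6316 in R4VPL3-1. No treatment overlapped another, and the lowest R4VPL3-1 library lay above the highest VHL-r library. Fold changes are on the scale of log2(normalized count + 1), from limma with Benjamini-Hochberg adjustment over all 15230 genes, and genes were called at an adjusted p of at most 0.05. TXNIP was 4.53-fold higher in R4VPL3-1 than in DMSO (log2 2.18, SE 0.08, n = 3 per group; limma adjusted p = 2.39e-14), the 52nd largest rise of all tested genes. In VHL-r it was 3.03-fold higher than in DMSO (log2 1.60, SE 0.08; limma adjusted p = 8.33e-12), in place 91. Both comparisons use the same DMSO libraries.

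The full molecule and its VHL-binding part were compared at the same dose and time, and TXNIP was 1.50-fold higher with R4VPL3-1 (log2 0.58, SE 0.08, 95% interval 0.42 to 0.74; limma adjusted p = 6.70e-05). This difference was called under each of the 19 alternative settings tried, with adjusted p up to 0.0137. The spread among libraries was widest in DMSO, where replicate 1 lay below the others, with a CV of 15.9% against 1.61% in VHL-r.

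ARRDC4 (chr15:97960703-97973833, plus strand), an alpha-arrestin and paralog of TXNIP, also rose with both compounds, from a lower level. Its normalized counts were 301, 304 and 341 in DMSO, 661, 701 and 610.4 in VHL-r, and 762, 732 and 694 in R4VPL3-1. Every treated library lay above every DMSO library, and the R4VPL3-1 and VHL-r libraries overlapped. The rise over DMSO was 2.31-fold with R4VPL3-1 (log2 1.21, SE 0.08; limma adjusted p = 2.46e-10) and 2.08-fold with VHL-r (log2 1.06, SE 0.08; limma adjusted p = 3.42e-09). Between the compounds the log2 difference was 0.15, with a 95% interval from -0.01 to 0.31, and was not called (limma adjusted p = 0.579). The ratio of TXNIP to ARRDC4 was 4.03, 5.48 and 4.51 in DMSO, 6.78, 6.31 and 7.11 in VHL-r, and 9.17, 8.93 and 9.10 in R4VPL3-1, with no overlap between treatments. No test was run on this ratio.

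**Figure D1:**
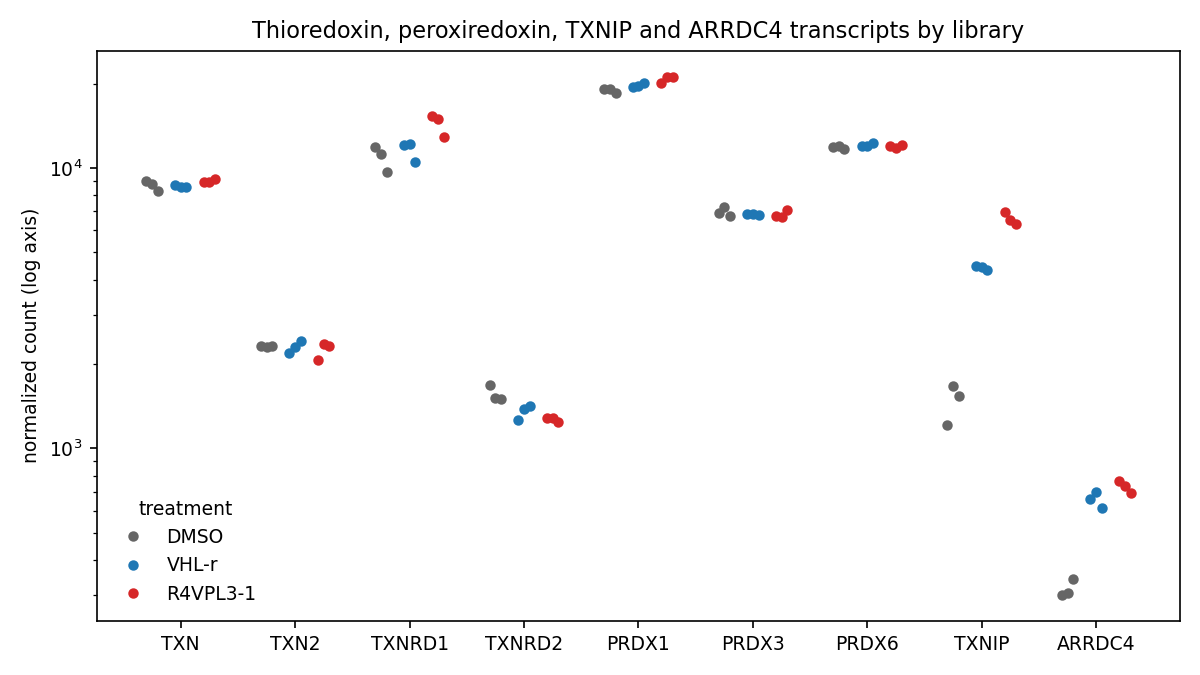
Normalized counts (log axis) of the 9 genes with reads, with 1 point per library in replicate order and colours for DMSO, VHL-r and R4VPL3-1. TXNIP stepped from 1210.45 to 1665 in DMSO to 4342 to 4483 in VHL-r and 6316 to 6984 in R4VPL3-1, while TXN, TXN2, PRDX3 and PRDX6 stayed within narrow bands.

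TXNRD1 (chr12:104215779-104350307, plus strand), the cytosolic thioredoxin reductase, was higher with R4VPL3-1 than in either other group. Its normalized counts were 11839, 11241 and 9648 in DMSO, 12112, 12193 and 10493 in VHL-r, and 15370.3, 14966 and 12926 in R4VPL3-1. All R4VPL3-1 libraries were above all others, DMSO and VHL-r overlapped, and replicate 3 was the lowest library in each treatment. The rise over DMSO was 1.32-fold (log2 0.40, SE 0.07; limma adjusted p = 2.26e-04). VHL-r differed from DMSO by 0.09 on the log2 scale, with a 95% interval from -0.06 to 0.24, and was not called (limma adjusted p = 0.442).

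Between the compounds, TXNRD1 was 1.24-fold higher with R4VPL3-1 (log2 0.31, SE 0.07, 95% interval 0.16 to 0.46; limma adjusted p = 0.0204). Neither the robust option of limma (adjusted p = 0.268) nor DESeq2 on the recovered reads (adjusted p = 0.117) called it. It was not called either without VHL-r replicate 3 (limma adjusted p = 0.150), without R4VPL3-1 replicate 1 (0.134) and without R4VPL3-1 replicate 2 (0.128). Over all 19 alternatives the adjusted p ran from 1.25e-05 to 0.268, and the log2 difference from 0.24 to 0.39. The lowest adjusted p came from the limma fit with the replicate number as a block. Between same-numbered libraries the log2 differences were 0.34, 0.30 and 0.30.

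TXNRD2 (chr22:19875517-19941820, minus strand), the mitochondrial reductase, moved the other way. Its normalized counts were 1684, 1507 and 1495 in DMSO, 1267, 1381 and 1415 in VHL-r, and 1289, 1283 and 1245 in R4VPL3-1, so that every treated library lay below every DMSO library. Its log2 fold change was -0.29 with R4VPL3-1 (SE 0.06; limma adjusted p = 9.22e-04) and -0.20 with VHL-r (SE 0.06; limma adjusted p = 0.0187). Leaving out DMSO replicate 1 (limma adjusted p = 0.129) or VHL-r replicate 1 (0.104) ended the VHL-r call. The compounds differed by -0.09, with a 95% interval from -0.21 to 0.04, which was not called (limma adjusted p = 0.731).

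**Figure D2:**
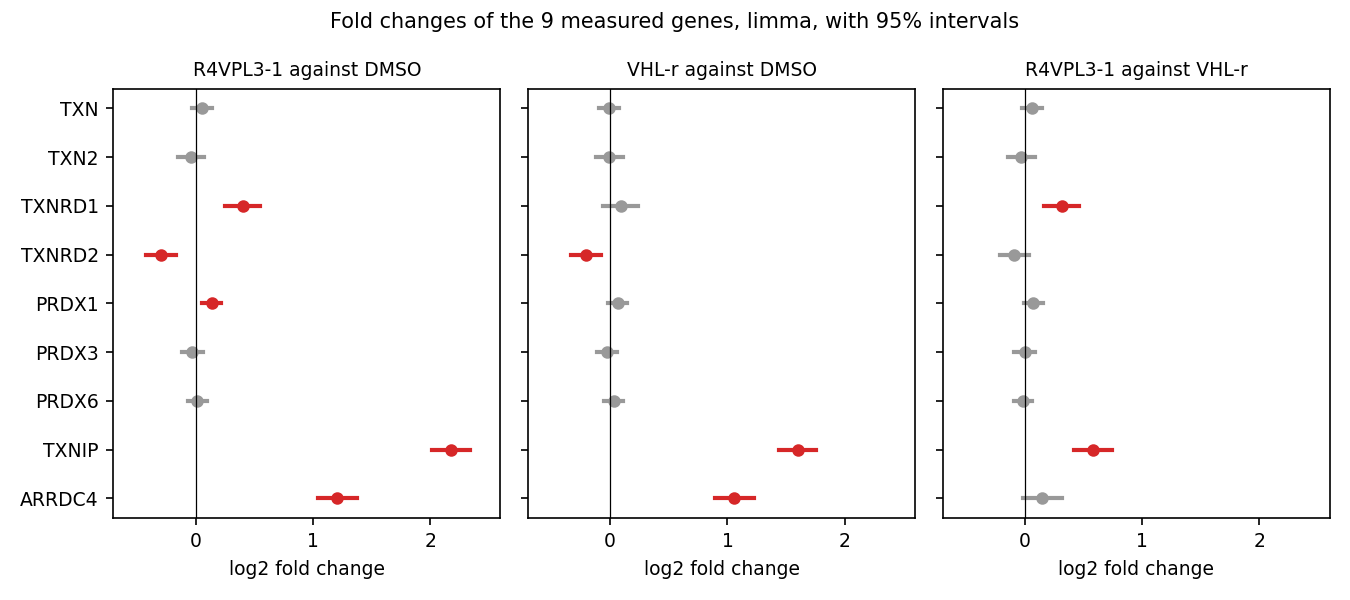
Log2 fold changes of the 9 genes in the 3 comparisons, with 95% intervals from limma; red marks genes called at an adjusted p of at most 0.05. TXNIP (2.18, 1.60 and 0.58) and TXNRD1 (0.40, 0.09 and 0.31) were the genes called between R4VPL3-1 and VHL-r.

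The thioredoxins themselves were not called in any comparison by limma, edgeR or DESeq2, and 0 of their limma results had an unadjusted p under 0.05. TXN (chr9:110243810-110256507, minus strand), the cytosolic and nuclear thioredoxin, lay between 8275 and 9157 normalized counts in all 9 libraries, a span of 1.11-fold. All 3 R4VPL3-1 libraries (8938, 8877 and 9157) were above the VHL-r libraries (8688, 8574 and 8542), but the log2 difference was 0.06, with a 95% interval from -0.02 to 0.15 (limma adjusted p = 0.706). Against DMSO, TXN differed by 0.05 with R4VPL3-1 (interval -0.03 to 0.14) and by -0.01 with VHL-r (interval -0.10 to 0.08). TXN2 (chr22:36467046-36481640, minus strand), the mitochondrial thioredoxin, lay between 2070.1 and 2412, and its log2 differences were -0.04, -0.01 and -0.03 in the R4VPL3-1, VHL-r and between-compound comparisons. The intervals for TXN2 kept within -0.15 and 0.11.

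Among the peroxiredoxins, PRDX1 (chr1:45510914-45542732, minus strand), an abundant cytosolic form, was the one called. Its normalized counts were 19082, 19120.2 and 18528 in DMSO, 19437, 19646 and 20174 in VHL-r, and 20078, 21149 and 21172 in R4VPL3-1. Both compounds gave values above every DMSO library, and the compounds overlapped. With R4VPL3-1 it was 1.10-fold higher than in DMSO (log2 0.14, SE 0.04; limma adjusted p = 0.0134), which did not pass when DMSO replicate 3 (limma adjusted p = 0.0544) or R4VPL3-1 replicate 2 (0.0592) was left out. The difference of VHL-r from DMSO was 0.06 (interval -0.02 to 0.15; limma adjusted p = 0.310) and that of R4VPL3-1 from VHL-r 0.07 (interval -0.01 to 0.16; limma adjusted p = 0.584).

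PRDX3 (chr10:119167720-119178812, minus strand), the mitochondrial peroxiredoxin, lay between 6685 and 7247 normalized counts. PRDX6 (chr1:173477330-173488815, plus strand), which uses glutathione rather than thioredoxin, lay between 11681 and 12283. Their highest libraries were 1.08-fold and 1.05-fold above their lowest. The largest log2 difference of the pair in any comparison was 0.03 in size, and no interval reached beyond -0.12 or 0.11. PRDX6 in VHL-r (12016, 11990 and 12283) did not overlap DMSO (11913, 11943 and 11681), with a log2 difference of 0.03 (limma adjusted p = 0.655).

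PRDX2, another cytosolic peroxiredoxin, was listed at 0 in all 9 libraries. In GENCODE 44 its gene (chr19:12796820-12801800, minus strand) lies wholly within the span of HOOK2 on the same strand, with no exon base shared, and HOOK2 had 218 to 278 normalized counts. Of 197 protein-coding genes placed in this way, 181 (91.9%) had a mean under 1, against 3560 of 13237 (26.9%) of those whose span no gene on the same strand covers. No level of PRDX2 can be read from these values.

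Of the 9 genes, 4 were called higher with R4VPL3-1 than in DMSO (TXNIP, ARRDC4, TXNRD1 and PRDX1) and 1 lower (TXNRD2), 5 in all, where 24.9% of all tested genes were called, 13.1% higher and 11.8% lower. With VHL-r, 2 were called higher than in DMSO (TXNIP and ARRDC4) and 1 lower (TXNRD2), where 19.8% of all genes were called, 10.3% higher and 9.51% lower. Between R4VPL3-1 and VHL-r, 2 were called higher (TXNIP and TXNRD1) and 0 lower by limma (0 lower also by edgeR, by DESeq2 and at an unadjusted limma p under 0.05), against 1.87% of all genes, 1.14% higher and 0.729% lower. The median log2 fold change of the 9 was 0.05, 0.03 and 0.06 in the R4VPL3-1, VHL-r and between-compound comparisons, and that of all tested genes -0.01, -0.00 and -0.01.

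Levels of different genes were compared as normalized counts per kb of the canonical GENCODE 44 transcript, which is approximate because the feature counted is not given in the sources used here. Genes nested in another gene were mostly at 0 even with no shared exon (above, with PRDX2), and whether reads were counted over whole genes, introns included, was not tested. If they were, the values per kb of transcript would hold intron reads, which differ from gene to gene, so the order and the ratio that follow rest on this. They also rest on the length used. All annotated exons together covered 8201 bases for TXNRD2 and 3604 for TXNIP, against canonical lengths of 1941 and 2905. Whether the order holds per kb of all exon bases was not tested. In DMSO the order was PRDX1 (20011 ± 351, SD, n = 3), TXN (11757 ± 479), PRDX6 (7009 ± 84.8), PRDX3 (4485 ± 168), TXNRD1 (2826 ± 293), TXN2 (1727 ± 9.65), TXNRD2 (805 ± 54.7), TXNIP (506 ± 80.6) and ARRDC4 (77.6 ± 5.48), with no overlap between neighbours. With VHL-r TXNIP reached 1520 per kb (range 1495 to 1543), above TXNRD2 and below TXN2 (1634 to 1805). With R4VPL3-1 it reached 2276 (range 2174 to 2404), above TXN2 (1549 to 1766) and below TXNRD1 (3349 to 3982). The ratio of TXN to TXNIP per kb, 23.7 ± 4.74 in DMSO (SD, n = 3), was 7.68 ± 0.06 in VHL-r and 5.37 ± 0.34 in R4VPL3-1.

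**Figure D3:**
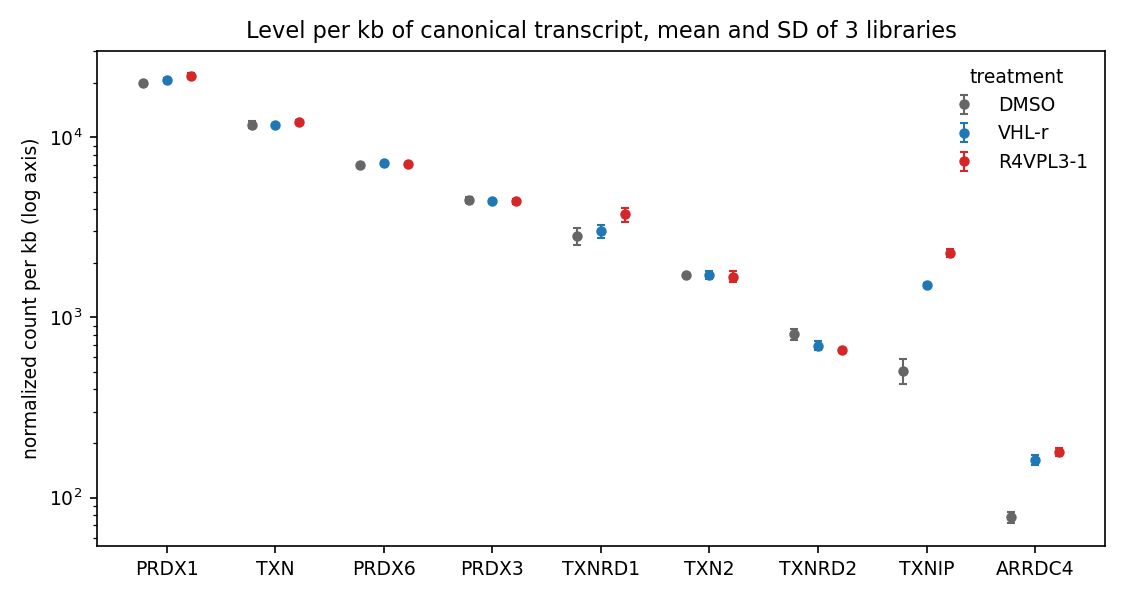
Normalized counts per kb of canonical transcript (log axis), mean and SD of 3 libraries, with colours for the treatment. On this length, TXNIP climbed past TXNRD2 with VHL-r (1520 per kb) and past TXN2 with R4VPL3-1 (2276 per kb). The order of the other genes was the same in all treatments. Whether the order holds on another length was not tested.

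Related genes were taken from lists of relatives, regulators, NADPH enzymes and clients. These lists were chosen with earlier results of these data known. The share of a list called, set beside that of all genes, is therefore a description only. Among 23 tested relatives of the thioredoxins and peroxiredoxins, 5 were called higher with R4VPL3-1 than in DMSO (SESN1, SESN2, SESN3, GLRX2 and SOD1) and 4 with VHL-r (SESN1, SESN2, SESN3 and SOD2), with list medians of 0.04 in both. Counted in either direction, these shares called were below the 24.9% and 19.8% of all tested genes called in the same comparisons. All of these calls were higher, and their shares were above the 13.1% and 10.3% of all tested genes called higher. By limma, edgeR and DESeq2 0 of the 23 were lower in either comparison, where limma called 11.8% and 9.51% of all tested genes lower. At an unadjusted limma p under 0.05 the lower ones were 0 with R4VPL3-1 and 1 with VHL-r. The sestrins, stress-induced proteins linked to peroxiredoxin regeneration and to mTORC1 control, had the largest of these changes. SESN2 had 565, 604 and 632 normalized counts in DMSO, 1467, 1504 and 1763 in VHL-r, and 2454, 2209 and 2106 in R4VPL3-1. No treatment overlapped another for SESN2, as for TXNIP, and its log2 fold changes were 1.91 and 1.39 over DMSO (SE 0.07; limma adjusted p = 7.46e-14 and 2.43e-11) and 0.52 between the compounds (limma adjusted p = 1.34e-04). SESN3 rose by 2.09 with R4VPL3-1 and 2.06 with VHL-r (SE 0.16; limma adjusted p = 3.06e-09 and 6.47e-09). SESN1 rose by 0.42 and 0.31 (SE 0.08; limma adjusted p = 3.7e-04 and 0.00614). The DMSO libraries of SESN3 were spread, at 133, 203 and 282 normalized counts. Its log2 fold change with R4VPL3-1 ran from 1.81 to 2.35 over the 19 alternatives.

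Between the compounds, 2 of these 23 relatives were called, both higher, SESN2 and SOD1, the cytosolic superoxide dismutase, with a list median of -0.00. Of all tested genes, 1.87% were called in this comparison, 1.14% higher. SOD1 differed by 0.18 (limma adjusted p = 0.0243), a call lost under 6 of 19 alternatives, those leaving out VHL-r replicate 1 (0.0910) or 2 (0.140) or R4VPL3-1 replicate 1 (0.0615), 2 (0.0884) or 3 (0.0632), and that with no filter (0.0588). Over DMSO, SOD1 was higher by 0.26 with R4VPL3-1 (limma adjusted p = 8.33e-05), called under all 19 alternatives. With VHL-r it differed from DMSO by 0.08 (limma adjusted p = 0.210), which was not called. Leaving out DMSO replicate 1 (limma adjusted p = 0.0799), DMSO replicate 3 (0.0545) or R4VPL3-1 replicate 2 (0.0771) ended the GLRX2 call with R4VPL3-1 (0.16). GLRX2 differed by 0.13 with VHL-r (limma adjusted p = 0.0757) and by 0.03 between the compounds (0.930), neither called. The SOD2 call with VHL-r (0.15) was lost under 7 of 19 alternatives, with adjusted p up to 0.151 without DMSO replicate 1. SOD2 differed by 0.05 with R4VPL3-1 (limma adjusted p = 0.495) and by -0.09 between the compounds (0.575), neither called. SRXN1, the sulfiredoxin that repairs peroxiredoxins, and GPX1 had means under 10 and were not tested, and the spans of both were covered by another gene on the same strand.

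Of the 4 tested genes among the other alpha-arrestins and the MondoA-MLX factors, 2 were called higher and 1 lower than in DMSO with each compound, with list medians of 0.22 and 0.18, where 24.9% and 19.8% of all tested genes were called in either direction. ARRDC3, an alpha-arrestin that takes part in receptor turnover, had 212, 291 and 288 normalized counts in DMSO, 291, 306 and 291 in VHL-r, and 784, 729 and 528 in R4VPL3-1. Only the R4VPL3-1 libraries stood apart, with log2 fold changes of 1.357 over DMSO (SE 0.13; limma adjusted p = 7.97e-08) and 1.18 over VHL-r (SE 0.13; limma adjusted p = 5.29e-06). ARRDC3 was the 1 gene of the 4 called between the compounds (list median 0.04), where 1.87% of all tested genes were called, 1.14% higher. ARRDC2 rose by 0.31 with R4VPL3-1 (limma adjusted p = 9.61e-04) and by 0.19 with VHL-r (0.0428), the latter lost under 7 of 19 alternatives, with adjusted p up to 0.178 without VHL-r replicate 1.

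MLX, the partner of MondoA, had 3389, 3335 and 3298 normalized counts in DMSO, 2759.97, 2813 and 2911 in VHL-r, and 2678, 2763 and 2749 in R4VPL3-1. All treated libraries lay below all DMSO libraries, with log2 fold changes of -0.29 (SE 0.04; limma adjusted p = 4.00e-05) and -0.24 (SE 0.04; limma adjusted p = 4.25e-04). MLXIP, which encodes MondoA, was called higher with VHL-r (log2 0.18; limma adjusted p = 0.0164), which did not pass when DMSO replicate 2 (0.127) or VHL-r replicate 3 (0.0577) was left out. It differed by 0.12 with R4VPL3-1 (limma adjusted p = 0.117) and by -0.07 between the compounds (0.811), neither called.

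**Figure D4:**
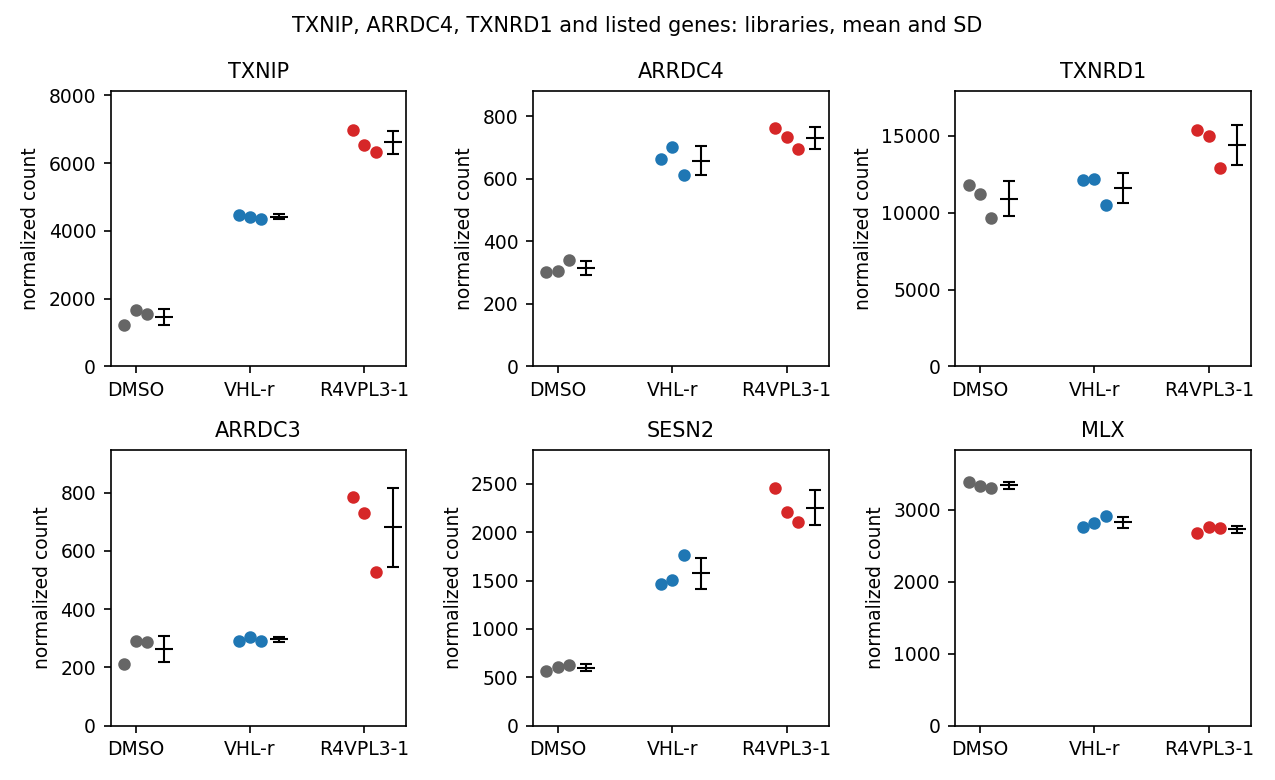
Normalized counts of TXNIP, ARRDC4, TXNRD1, ARRDC3, SESN2 and MLX, with 1 point per library and the mean with SD beside each treatment; every axis starts at 0. SESN2 rose in steps like TXNIP, ARRDC3 was high in R4VPL3-1 (528 to 784) and not in VHL-r (291 to 306), and MLX was lower in both treatments.

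Of 8 enzymes that can make NADPH, the electron source of the reductases, 4 were called higher with R4VPL3-1 than in DMSO (IDH1, MTHFD2, ALDH1L2 and PGD, log2 0.14 to 0.27). With VHL-r 2 were called higher (IDH1 0.26 and MTHFD2 0.18). Of all tested genes, 13.1% and 10.3% were called higher, and 11.8% and 9.51% lower. By limma, edgeR and DESeq2 0 of the 8 were lower, and at an unadjusted limma p under 0.05 the lower ones were 0 with R4VPL3-1 and 1 with VHL-r. The list medians were 0.12 and 0.08. Between the compounds 0 of the 8 were called by limma, edgeR or DESeq2, or at an unadjusted limma p under 0.05 (median 0.05). Limma called 1.87% of all tested genes there. The ALDH1L2 and PGD calls were each lost under 5 of 19 alternatives, with adjusted p up to 0.160 without R4VPL3-1 replicate 1 and up to 0.111 without R4VPL3-1 replicate 2. Of 6 tested clients and partners of thioredoxin, RRM2B, a ribonucleotide reductase subunit, was the 1 called higher, by 0.22 with R4VPL3-1 (limma adjusted p = 0.00457) and 0.20 with VHL-r (0.0141), against the same shares of all genes. For VHL-r the call of RRM2B ended when DMSO replicate 1 (0.0615), DMSO replicate 2 (0.0601) or VHL-r replicate 2 (0.0779) was left out. The medians of this list were -0.04, -0.06 and 0.01. Between the compounds 0 of the 6 were called by limma, edgeR or DESeq2, or at an unadjusted limma p under 0.05, where limma called 1.87% of all tested genes.

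**Figure D5:**
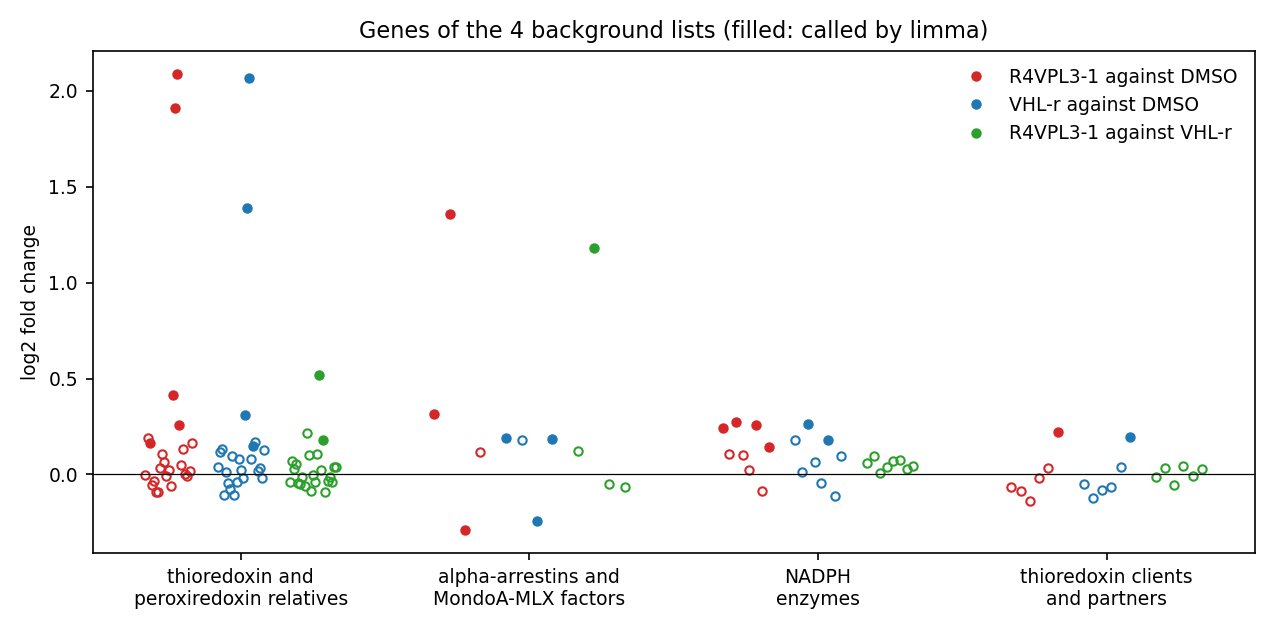
Log2 fold changes of the tested genes of the 4 lists in the 3 comparisons, with filled points for genes called by limma. The sestrins (SESN3 2.09 and SESN2 1.91 with R4VPL3-1) and ARRDC3 (1.357) were the points farthest from 0, and most other points lay close to it.

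Genes whose pattern over the 9 libraries was most like that of TXNIP, ARRDC4 or TXNRD1 were taken by Pearson's r of log2(normalized count + 1), among 5557 tested genes with an SD of at least 0.2. The r values describe libraries that share their treatments. For TXNIP the nearest were BTG2 (0.99), an antiproliferative gene, SESN2 (0.99), ZBTB5 (0.99), a gene with no symbol in the table (0.99) and C6orf62 (0.99). For ARRDC4 they were MSX1, PCDH19, a gene with no symbol, PITHD1 and ZNF280C, all at 0.99 or above. TXNIP and ARRDC4 stood at 0.98 with each other. TXNRD1 had lower values, with ZNF273 at 0.95, a gene with no symbol at 0.94, ZKSCAN3 at 0.94, GCLM, the modifier subunit of the enzyme that starts glutathione synthesis, at 0.94 and MAFF, a small MAF transcription factor, at 0.94, and it stood at 0.69 with TXNIP.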

How the data were processed

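Poly(A)-selected RNA of 9 A375R libraries was read from 1 end for 100 bases with strand information kept. The authors aligned reads with STAR to GRCh38, ran htseq-count in its reverse mode to count each gene, and deposited a normalized signal per gene, the read count divided by a DESeq2 (1.36.0) size factor (0.934 to 1.10). Dividing by what 1 read is worth gave whole reads for 100% of values above 0 (tolerance 0.05 reads), 26435568 to 32085626 per library.

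Since the deposited values are normalized, the test was limma (3.58.1, R 4.3.3; trend option) on log2(value + 1) in 1 fit of the 3 groups, over 15230 genes with a mean of at least 10. Alternatives were pseudocounts of 0.1 and 5, no filter or a mean of at least 50, TMM scaling, a replicate block, the robust option, only the 6 libraries compared, the recovered reads in edgeR (4.0.16) or in DESeq2 (1.42.0), and each library left out; the closing section gives their effect.

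All 10 chosen genes were named, and genes of the 4 lists were named with a fold change where called. The genes and lists were chosen with earlier results of these data known. All 10 matched GENCODE 44 by identifier and coordinates, and promoter windows came from RefSeq. The errors come from the spread between replicates, and counting error is part of that spread. It is largest for ARRDC4, the lowest in count of the tested genes chosen. How much of the spread it made was not tested for any of these genes.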

Additional observations from a re-analysis of the deposited data

How the results depend on the processing

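Of 27 results (9 genes in 3 comparisons), 17 kept their direction and side of the threshold under all 19 alternatives, among them TXNIP in every comparison and ARRDC4 in every comparison. Of 26 list gene results, 18 did. Between R4VPL3-1 and VHL-r, 1 of the 9 genes was called with the robust option and 1 with DESeq2, where 2 were called otherwise, and leaving out 1 library gave between 1 and 2. The genes called between the compounds, 285, ranged from 182 (without R4VPL3-1 replicate 1) to 358 with a library left out, those higher from 113 (without the same library) to 232 and those lower from 68 (without VHL-r replicate 2) to 126. Small uncalled differences changed sign when 1 library was left out. For TXN2 they ranged over -0.0743 to 0.0202 against DMSO with R4VPL3-1, -0.0429 to 0.0289 with VHL-r and -0.0675 to 0.0273 between the compounds. For PRDX3 the ranges were -0.0539 to 0.0024, -0.0512 to 0.0020 and -0.0270 to 0.0165, and for TXN with VHL-r -0.0427 to 0.0149. The cause was not tested.

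The replicate numbers were shared by the treatments, and the main fit did not take them as pairs. Over all tested genes the deviations of same-numbered libraries correlated between -0.01 and 0.12. These low values do not settle whether same-numbered libraries were pairs, which the labels do not give. Set against the 3 libraries of another treatment, a library correlated best with its own number in 12 of 18 cases. The headers of the deposited table number the libraries repeat by repeat, with the treatments in turn. Whether the repeats form batches was not tested. A fit with the replicate block called 4241, 3451 and 389 genes in the R4VPL3-1, VHL-r and between-compound comparisons, against 3792, 3016 and 285 without it, and 5, 3 and 2 of the 9 genes. TXNRD1 between the compounds had an adjusted p of 1.25e-05 with the block. TMM scaling moved the median of all genes by at most 0.01. Counting error was larger for genes with few reads, such as ARRDC4 (301 to 341 normalized counts in DMSO), than for the others. How much of their spread it made was not tested. PRDX2 could not be measured in this table.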
